A study of Mus musculus with 7 samples.

Results

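Solute carriers are the membrane proteins that bring sugars, amino acids, fatty acids, lactate, metals and ions into and out of cells and organelles, and their genes carry symbols that start with Slc and a family number. The members described here are the genes whose platform symbol is Slc followed by a digit, taken from probes with exactly 1 symbol and without pseudogene (-ps) entries, which gave 119 of 9294 genes. The rule itself used no measured value, though it was set with earlier results of these data known. Each member had 1 probe, and every member was tested without a filter on low signal. Of the 119, 4 carry such a symbol without being transporters (Slc4a1ap, Slc7a6os, Slc9a3r1 and Slc9a3r2), and they were grouped apart from the 115 transporters.

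Expression was measured on Affymetrix arrays in total RNA of 2 fat depots of wild-type male C57 mice. There were 4 arrays of paracardial fat (pCF), which lies next to the heart, and 3 of intra-abdominal fat (iVF). Samples are numbered in the labels as biological replicates, with no age, pooling or animal named, so a p-value covers the spread among these samples only, which may be partly technical. The values are RMA expression values, taken as log2, and a difference is always paracardial minus intra-abdominal on that scale, not a calibrated fold. A member passed when its adjusted p from limma, over all 9294 genes, was under 0.05.

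In adipocytes, insulin moves the glucose transporter GLUT4 from vesicles to the cell surface, and the fatty acid transport protein FATP1 takes up fatty acids for storage. Lactate, pyruvate and ketone bodies cross the membrane through proton-coupled monocarboxylate transporters, and large neutral amino acids enter by exchangers built of a light and a heavy subunit. Inside the cell, most Slc25 carriers lie in the inner mitochondrial membrane and exchange nucleotides, carnitine esters, amino acids and metals with the matrix. Other families work mostly in kidney, gut, liver or brain, where they reabsorb phosphate, salt, amino acids and organic ions.

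All 7 arrays held values up to a ceiling between 19.81 and 19.93, and no member reached within 0.1 of it on any array. The highest ceiling (19.93) was that of pCF array 4 and iVF array 3, and differences within this set of 2 arrays and within the other 5 are given beside some results. Over all probes, Spearman's rho ranged from 0.909 to 0.955 within paracardial fat, from 0.83 to 0.932 within intra-abdominal fat and from 0.786 to 0.914 across the depots. The depots also differed in markers of their cells. Of 10 adipocyte markers 7 were lower in paracardial fat, with a mean level of 6.08 to 10.36 on paracardial and 14.41 to 15.88 on intra-abdominal arrays. The paracardial arrays were not alike in this mean, which was 6.1, 6.2, 9.7 and 10.4 on arrays 1 to 4. Of 4 endothelial markers 2 were lower (5.38 to 7.04 against 9.15 to 11.61). Higher in paracardial fat were 4 of 8 thymic and other epithelial markers (9.14 to 10.01 against 5.21 to 7.23). So were 2 of 5 thymocyte markers (10.41 to 12.92 against 7.29 to 9.84) and 2 of 3 T cell markers (8.75 to 12.24 against 5.27 to 7.73). These ranges are means over all measured markers of a type. Of the 5 thymocyte markers 4 had a positive difference. The other, Cd1d1, lay lower in paracardial fat without overlap and did not pass (-3.29, adjusted p = 0.058 by limma). None passed among 4 brown adipocyte, 5 B cell, 6 macrophage, 3 mesothelial or 2 fibroblast markers, nor did the 1 erythroid or the 1 muscle marker measured. Both fibroblast markers, Dpt (-5.36, adjusted p = 0.137 by limma) and Lum (-2.94, 0.110), lay lower in paracardial fat without overlap. Fewer cells of a type and less RNA per cell cannot be told apart in these tissue samples. The part of these cell types in the results below was not tested.

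Of the 119 members, 9 were lower in paracardial fat, 2 were higher and 108 did not pass. The 11 called make up 9.24% of the members, where 9.16% of all genes passed, a share near that of all genes. By direction, 7.56% of the members were lower against 2.91% of all genes, and 1.68% were higher against 6.25% of all genes. These shares depend on the scaling: quantile normalization applied again called 12 members lower and 2 higher beside 474 genes lower and 436 higher, cyclic loess 13 and 2 beside 571 and 453, and centring on array medians 11 and 1 beside 387 and 603. The median difference was -0.28 over the members and 0.13 over all genes. A negative difference was found in 82 of 119 members (68.9%, against 39.4% of all genes). As a description of the same values, the depots did not overlap in 34 members (28.6%, against 26.7% of all genes), 24 of which lay lower in paracardial fat (20.2%, against 8.78% of all genes) and 10 higher (8.40%, against 18.0%). The number called fell from 11 to 2 without paracardial array 1, to 3 without array 2, to 3 without array 3, to 6 without array 4 and to 4 without intra-abdominal array 2. It was 8 without intra-abdominal array 1 and 8 without array 3. Without paracardial arrays 1 and 2 together no member passed by limma. At an unadjusted limma p under 0.05 there were 22 of the 119 members, beside 1751 of all 9294 genes.

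**Figure D1:**
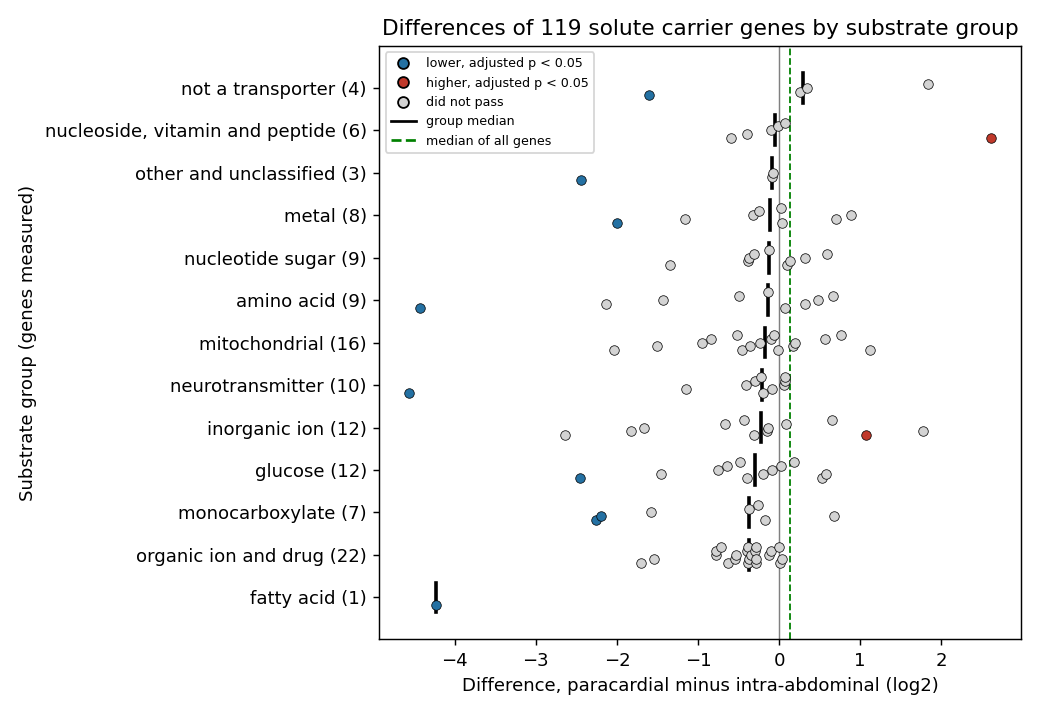
Differences of the 119 members in log2 units (horizontal axis) by substrate group (vertical axis, with the number of genes measured), where each point is a gene, blue and red points passed the test, black bars are group medians and the green dashed line is the median of all genes. The group medians of the transporters lie between -4.23 for the 1 fatty acid transporter and -0.05 for nucleoside, vitamin and peptide carriers, all below the 0.13 of all genes, while most single members lie within 1 of 0.

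The differences were spread unevenly within each family. In 91 of the 119 members the difference was under 1 in size, as in 6650 of all 9294 genes. The largest belonged to single members of the neurotransmitter (Slc6a13), amino acid (Slc7a8) and fatty acid (Slc27a1) groups. No substrate group had more than 2 members past the test. The promoters of 4 members that the results turn on are printed first: Slc7a8 and Slc16a12, lower in paracardial fat, Slc46a2, the most strongly higher member, and Slc34a1, which was high on 1 array. Each has a single window in the RefSeq table of GRCm38.p6, covering 250 bases before and 50 after the annotated start, and capitals mark any match, on either strand, to GGGCGG (the GC box), to CCAAT (the CCAAT box), to TATAAA (the TATA box) or to AGGTCA (a nuclear receptor half-site). The windows lie at chr14:54781837-54782136 (minus strand) for Slc7a8, chr19:34747279-34747578 (minus) for Slc16a12, chr4:59915007-59915306 (minus) for Slc46a2 and chr13:55399398-55399697 (plus) for Slc34a1.
Slc7a8: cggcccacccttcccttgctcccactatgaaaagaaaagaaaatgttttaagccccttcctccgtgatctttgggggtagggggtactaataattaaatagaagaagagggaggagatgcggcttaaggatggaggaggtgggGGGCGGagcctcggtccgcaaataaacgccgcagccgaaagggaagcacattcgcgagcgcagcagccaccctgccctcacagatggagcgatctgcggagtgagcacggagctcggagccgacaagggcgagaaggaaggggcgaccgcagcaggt
Slc16a12: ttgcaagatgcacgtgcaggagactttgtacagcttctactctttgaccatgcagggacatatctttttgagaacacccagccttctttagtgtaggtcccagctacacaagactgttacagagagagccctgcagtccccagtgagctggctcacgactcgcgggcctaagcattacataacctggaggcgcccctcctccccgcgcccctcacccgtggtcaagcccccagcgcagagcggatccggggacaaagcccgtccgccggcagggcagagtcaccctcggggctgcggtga
Slc46a2: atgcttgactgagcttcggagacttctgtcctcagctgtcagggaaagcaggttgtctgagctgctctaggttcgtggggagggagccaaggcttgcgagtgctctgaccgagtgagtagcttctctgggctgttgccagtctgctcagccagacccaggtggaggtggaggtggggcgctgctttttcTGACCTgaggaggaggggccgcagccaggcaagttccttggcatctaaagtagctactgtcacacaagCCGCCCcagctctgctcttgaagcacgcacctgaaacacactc
Slc34a1: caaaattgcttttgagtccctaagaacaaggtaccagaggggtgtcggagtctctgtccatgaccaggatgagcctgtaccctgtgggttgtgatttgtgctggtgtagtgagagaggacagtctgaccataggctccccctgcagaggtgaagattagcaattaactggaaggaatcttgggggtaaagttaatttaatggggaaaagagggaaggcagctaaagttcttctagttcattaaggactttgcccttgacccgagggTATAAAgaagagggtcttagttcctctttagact
The Slc7a8 window held 1 GGGCGG, that of Slc46a2 1 GGGCGG and 1 AGGTCA, and that of Slc34a1 1 TATAAA, while none of the 4 motifs was found in that of Slc16a12. Of all 32851 windows, 35.7% held GGGCGG, 37.4% CCAAT, 13.6% TATAAA and 16.3% AGGTCA. Windows were given for 96 of the 119 members, 124 windows in all, of which 56.5% held GGGCGG, 31.5% CCAAT, 9.68% TATAAA and 16.1% AGGTCA. These matches are a description of the letters and were not set against the expression values.

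Among sugar transporters, Slc2a4 was the member that passed, lower in paracardial fat. Slc2a4 encodes GLUT4, the insulin-responsive glucose transporter of fat and muscle. Its log2 value was 5.36, 5.27, 6.31 and 6.44 in paracardial fat (arrays 1 to 4, the order used throughout) and 7.42, 7.94 and 9.52 in intra-abdominal fat (arrays 1 to 3). The depots did not overlap, and intra-abdominal array 3 was the highest. The difference was -2.45 ± 0.57 (SE; 95% confidence interval -3.82 to -1.08, adjusted p = 0.047 by limma), -2.03 within the 5 arrays with the lower ceiling and -3.09 within the other 2. When each of the 7 arrays was left out in turn, Slc2a4 kept its call 1 time, without intra-abdominal array 1, and the adjusted p reached 0.129 without intra-abdominal array 2.

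The other hexose transporters did not pass. Slc2a1 encodes GLUT1, the basal glucose transporter of most cells, and its values of 7.99, 8.05, 7.68 and 8.40 on paracardial arrays lay above the 7.61, 7.06 and 7.67 on intra-abdominal arrays without overlap. The difference of Slc2a1 was 0.58 ± 0.26 (adjusted p = 0.226). Slc2a2 (GLUT2, of liver and pancreas) differed by -0.75 (adjusted p = 0.231) and Slc2a5 (GLUT5, a fructose transporter) by 0.03 (0.946). The sugar phosphate exchangers of the Slc37 family lay between -0.64 and 0.53, among them Slc37a4, the glucose 6-phosphate transporter of the endoplasmic reticulum (-0.64 ± 0.18, adjusted p = 0.073). Slc5a7, grouped here by its family number though it carries choline, stood at 8.50 on intra-abdominal array 3 and between 4.09 and 4.59 on the other 6 arrays (-1.45 ± 0.98, adjusted p = 0.443). Of 12 members of the sugar group, 1 was lower and the other 11 did not pass, with a median of -0.29. Of 13 genes listed for the traffic of GLUT4 vesicles only Trarg1 was measured, a protein of these vesicles in fat, and it was lower (-7.35 ± 1.10, adjusted p = 0.015). None of 4 measured genes of glucose and lactate handling passed, the largest difference being that of Bsg, the chaperone of the lactate transporters (-2.27, adjusted p = 0.187).

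The fatty acid transporter Slc27a1 was lower in paracardial fat and was the only member of its family measured. It encodes FATP1, which couples fatty acid uptake to acyl-CoA synthesis. Its values were 6.28, 6.07, 7.47 and 7.23 in paracardial and 10.38, 11.14 and 11.45 in intra-abdominal fat. The gap between the depots exceeded the spread within either, with 6.76 ± 0.69 (SD, n = 4) against 10.99 ± 0.55 (SD, n = 3). The difference was -4.23 ± 0.45 (95% confidence interval -5.30 to -3.16, adjusted p = 0.0082), -4.16 within the 5 arrays and -4.22 within the 2. Slc27a1 passed whichever of the 7 arrays was left out, with adjusted p between 0.011 and 0.041. Of its partners in fatty acid uptake 3 of 12 were measured and none passed, led by the carrier Fabp4 (-6.38 ± 1.90, adjusted p = 0.092), which stood at 6.80 and 7.74 on paracardial arrays 1 and 2 and at 13.75 and 13.48 on arrays 3 and 4.

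Monocarboxylate transporters held 2 lower members of 7, beside 2.91% of all genes lower. Slc16a7 encodes MCT2, a lactate, pyruvate and ketone body transporter of high affinity. Its values on paracardial arrays were 6.51, 6.22, 6.25 and 6.08, and 8.68, 8.05 and 8.83 on intra-abdominal arrays. It had the smallest standard error among the 11 called members (-2.26 ± 0.25, 95% confidence interval -2.84 to -1.67, adjusted p = 0.0084) and passed whichever array was left out, with adjusted p up to 0.038. The 4 paracardial values lay within 1 of each other and more than 1 below every intra-abdominal value.

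Slc16a12, the creatine transporter MCT12, showed a like pattern. On paracardial arrays it lay at 5.23, 5.12, 4.98 and 5.28 and on intra-abdominal arrays at 7.14, 6.50 and 8.39 (-2.19 ± 0.43, adjusted p = 0.028), and its call held for 2 of the 7 left-out arrays, intra-abdominal arrays 2 and 3. The main lactate transporter of most tissues, Slc16a1 (MCT1), did not pass (0.68 ± 0.53, 95% confidence interval -0.59 to 1.95, adjusted p = 0.503). Its values were 9.57, 9.65, 10.39 and 11.67 on paracardial and 9.33, 9.82 and 9.78 on intra-abdominal arrays, so paracardial array 4 alone stood over 1 above all others. Slc16a10, a carrier of aromatic amino acids in the same family, differed by -1.58 ± 0.48 (adjusted p = 0.098). The group's median was -0.37.

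Among the amino acid transporters, grouped by family number alone, Slc7a8 was the single called member of 9. It encodes LAT2, the light subunit of an exchanger of large neutral amino acids. Its values were 6.12, 5.93, 6.63 and 7.97 on paracardial and 10.63, 10.34 and 12.29 on intra-abdominal arrays. Array 4 was the highest paracardial and array 3 the highest intra-abdominal array, and the depots were more than 2 apart at their nearest values. The difference was -4.43 ± 0.66 (95% confidence interval -6.00 to -2.85, adjusted p = 0.015), -4.26 within the 5 arrays and -4.32 within the 2. Leaving out paracardial array 1 ended its call (0.055), and leaving out any of the other 6 arrays did not.

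Its relatives of the same family did not pass: Slc7a7, a light subunit for cationic amino acids, differed by -0.13 (adjusted p = 0.807) and Slc7a6, another, by 0.48 (0.436). Slc43a1, a transporter of branched-chain amino acids, differed by 0.67 (0.356), Slc38a4 by 0.32 (0.529) and Slc1a4, a carrier of alanine, serine and cysteine, by 0.07 (0.871). Values for Slc7a12 and Slc3a1, which differed most after Slc7a8, are given below with the other genes high on intra-abdominal array 1. The heavy subunit Slc3a2 and the transporters Slc7a10, Slc1a5, Slc36a2, Slc40a1, Slc11a1 and Slc25a1 were not analysed here. Of 12 genes listed for amino acid sensing and use 5 were measured and none passed, the largest difference being that of Bckdhb, a subunit of the branched-chain ketoacid dehydrogenase (-1.82, adjusted p = 0.089).

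In the neurotransmitter group Slc6a13 had the largest difference of all members. This group was set by family number alone, whatever each member carries. Slc6a13 encodes GAT2, a transporter of GABA and taurine that is known outside the brain in liver and kidney. It stood at 5.51, 5.67, 5.89 and 6.07 on paracardial and at 8.94, 9.64 and 12.48 on intra-abdominal arrays. The paracardial arrays lay within 1 of each other, while intra-abdominal array 3 stood more than 2 above the other 2. The difference was -4.57 ± 0.81 (95% confidence interval -6.50 to -2.64, adjusted p = 0.021), -3.60 within the 5 arrays and -6.41 within the 2. Its call held for 3 of the 7 left-out arrays and ended without paracardial array 1 (0.068), 2 (0.062) or 3 (0.058) and without intra-abdominal array 2 (0.073). The taurine transporter Slc6a6 (-0.08, adjusted p = 0.927) and the serotonin transporter Slc6a4 (0.05, 0.872) did not pass. The other 9 members of the group lay between -1.14 (Slc6a18, a neutral amino acid transporter of kidney) and 0.07. Slc6a20a and Slc6a20b are near copies of each other, so their values are uncertain.

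Of 8 metal transporters 1 was lower. Slc39a1 encodes ZIP1, a zinc importer of the plasma membrane. Its values were 8.54, 8.19, 9.53 and 9.46 on paracardial and 10.38, 10.83 and 11.60 on intra-abdominal arrays, without overlap. The difference was -2.0 ± 0.45 (95% confidence interval -3.09 to -0.92, adjusted p = 0.043), and it lost its call whichever of the 7 arrays was left out (0.055 to 0.137). A pseudogene copy, Slc39a1-ps, differed in the same direction (-1.61, adjusted p = 0.166), and signal of the parent and the copy could be shared, so both are uncertain. The zinc importer Slc39a6 (ZIP6) differed by 0.88 (0.379), with paracardial array 4 at 9.25 and the other 6 arrays between 6.72 and 7.54, and the zinc exporter Slc30a4 by 0.71 (0.338). Slc31a2, a copper transporter, differed by -1.17 ± 0.50 (0.212), and the iron importer Slc11a2 by 0.03 (0.969).

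Genes for the proteins that bind, reduce and oxidise these metals also differed. Of 9 measured genes of iron, zinc and copper handling (18 listed) 5 were lower and none higher, with a median of -3.03, beside 2.91% of all genes lower and a median of 0.13. They were the metal-binding metallothioneins Mt1 (-4.34 ± 0.49, adjusted p = 0.0086) and Mt2 (-3.58 ± 0.32, 0.0067), the metalloreductases Steap4 (-7.63 ± 1.09, 0.014) and Steap3 (-1.45 ± 0.21, 0.014), and the ferroxidase Heph (-3.03 ± 0.44, 0.014). Mt1 lay at 9.58 to 11.40 on paracardial and at 14.38 to 15.58 on intra-abdominal arrays. The ferritin chain Fth1 differed by -0.03, with all 7 arrays between 16.15 and 16.28, and Ftl1 by -1.43 (0.227).

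**Figure D2:**
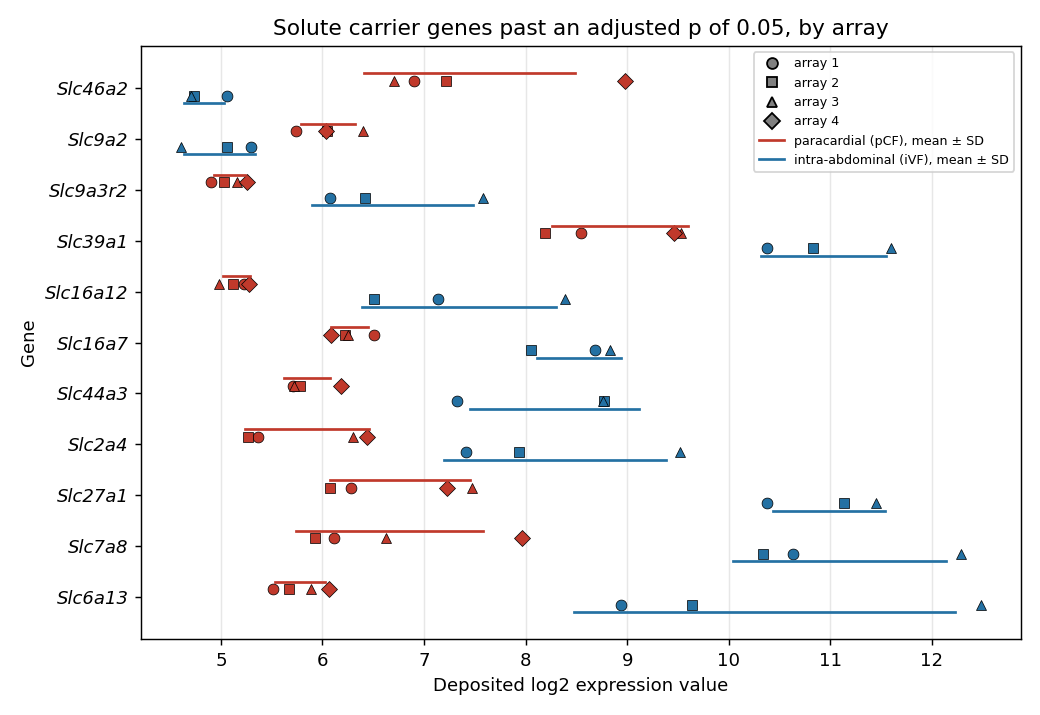
Deposited log2 value (horizontal axis) of the 11 members past an adjusted p of 0.05 (vertical axis) on each of the 4 paracardial (red) and 3 intra-abdominal (blue) arrays, where the marker shape gives the array number and the bars are the mean ± SD of each depot. The red and blue points of each gene do not overlap, with red to the left for 9 genes and to the right for Slc46a2 and Slc9a2.

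None of the 16 Slc25 genes, grouped as mitochondrial carriers by family number alone, passed in either direction by limma. Of them 3 had an unadjusted p under 0.05, beside 2265 of all 9294 genes. Their median difference was -0.17. Slc25a35, an inner membrane carrier, differed most (-2.03 ± 0.56, adjusted p = 0.072), with 6.26, 6.29, 6.50 and 7.43 on paracardial and 7.69, 8.42 and 9.83 on intra-abdominal arrays. Its depots did not overlap. It passed in 6 of 21 refits under other settings, among them the array set as a block and quantile normalization applied again. Its adjusted p by limma ranged up to 0.339 over these refits, and it passed in 0 of the 7 that left out a single array. The carrier Slc25a20 brings acylcarnitines into the matrix for beta-oxidation. It stood at 6.55, 6.36, 6.58 and 8.79 on paracardial and 7.24, 7.83 and 10.67 on intra-abdominal arrays (-1.51 ± 0.98, adjusted p = 0.418), so paracardial array 4 lay above intra-abdominal arrays 1 and 2.

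The same 2 arrays were high for many of these carriers. In 10 of 16 (62.5%) paracardial array 4 was the highest paracardial and array 3 the highest intra-abdominal array, against 31.1% of all members and 29.8% of all genes, and 5 of the 8 metal transporters (62.5%) showed the same order. These arrays form the set with the highest ceiling, and 3 of the 4 brown adipocyte markers were highest on paracardial array 4. There Ucp1, the uncoupling protein of brown fat, stood at 13.92 (4.36 to 6.14 on the other 6 arrays), Cidea at 9.38 (5.81 to 6.47) and Cox8b at 6.86 (4.28 to 5.58). The channel gene Kcnk3 was not high there, at 6.05, and was highest on intra-abdominal array 3 at 7.67. The part of brown adipocytes in these values was not tested. In the other direction, Slc25a13 (citrin, the aspartate and glutamate carrier) differed by 1.12 ± 0.34 (adjusted p = 0.094) and Slc25a37 (mitoferrin-1, an iron importer of mitochondria) by 0.76 ± 0.34 (0.231), both without overlap. The ADP/ATP carriers Slc25a4 and Slc25a5 differed by -0.36 (0.584) and 0.56 (0.307), and since they are close paralogs their probes could share signal. None of 6 measured genes of mitochondrial pores and channels passed (13 listed), led by Cpt2, which releases acyl groups from carnitine in the matrix (-2.55, adjusted p = 0.061).

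**Figure D3:**
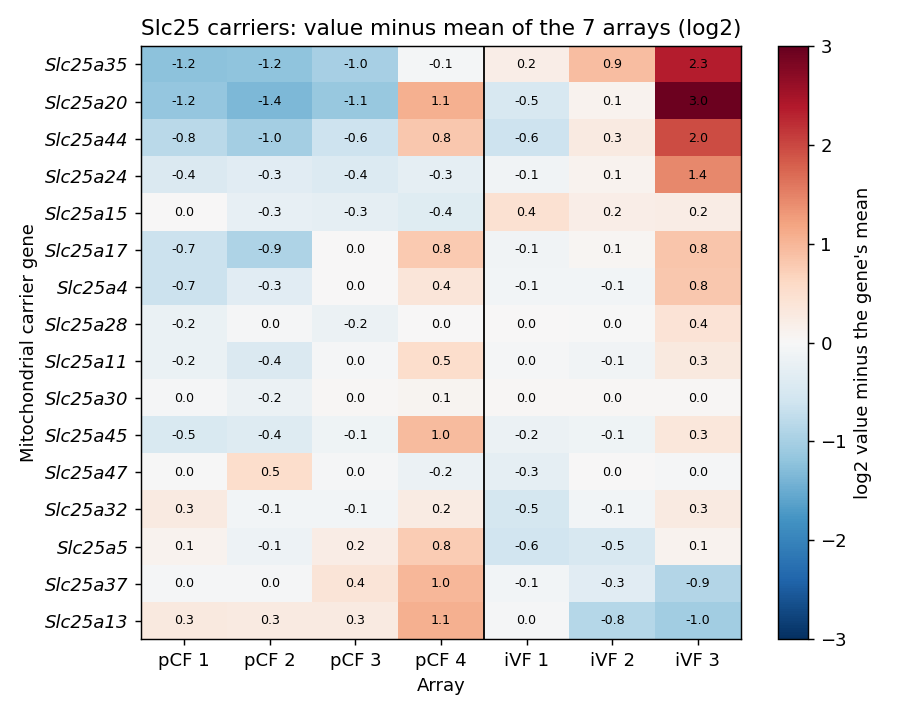
Deposited log2 value of the 16 Slc25 carriers (rows) on the 7 arrays (columns) minus the gene's mean over the arrays, with red above and blue below that mean. Columns pCF 4 and iVF 3 hold most of the high values, for example for Slc25a20 and Slc25a44, while Slc25a13 and Slc25a37 are lowest on iVF 3.

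The 2 members higher in paracardial fat were Slc46a2 and Slc9a2. Slc46a2 encodes a folate-family transporter also called thymic stromal cotransporter, known from thymic epithelium. It stood at 6.90, 7.22, 6.71 and 8.98 on paracardial and at 5.06, 4.73 and 4.70 on intra-abdominal arrays. All paracardial arrays lay more than 1 above every intra-abdominal array, and array 4 was the highest. The difference was 2.62 ± 0.56 (95% confidence interval 1.28 to 3.95, adjusted p = 0.036), 2.04 within the 5 arrays and 4.27 within the 2. Of the 7 left-out arrays its call held only for paracardial array 4 (0.021), and its adjusted p reached 0.134 without intra-abdominal array 2. On the same arrays the 8 thymic and other epithelial markers differed by 1.05 to 6.06, and 4 of them passed. Psmb11 (5.04) and the keratin Krt8 (5.08) did, while Foxn1 did not (1.05, adjusted p = 0.190 by limma). The part of such cells in the Slc46a2 result was not tested.

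Slc9a2 encodes NHE2, a sodium and proton exchanger known from epithelia. Its values were 5.74, 6.04, 6.40 and 6.03 on paracardial and 5.29, 5.06 and 4.61 on intra-abdominal arrays (1.07 ± 0.25, adjusted p = 0.047), and the call ended whichever array was left out (0.060 to 0.145). Other exchangers of the family pointed the same way without passing. The Golgi exchanger Slc9a7 differed by 0.65 ± 0.16 (adjusted p = 0.057), and the endosomal exchanger Slc9a9 by 1.77 ± 0.67 (0.163), with values of 9.25, 9.10, 10.29 and 11.66 on paracardial and 8.87, 7.68 and 8.37 on intra-abdominal arrays. Slc9a3 (NHE3, of kidney and gut) differed by -0.31 (0.577). Of 12 inorganic ion transporters 1 was higher and the other 11 did not pass (median -0.23). The 2 scaffold proteins named after NHE3, which are no transporters, went opposite ways: Slc9a3r2 (NHERF2) was lower (-1.60 ± 0.37, adjusted p = 0.046) and Slc9a3r1 (NHERF1) differed by 1.84 ± 0.73 (0.179). For Slc9a3r2 the call held without intra-abdominal array 1 or 3 and ended without any of the other 5.

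The remaining groups held 1 lower gene. Slc44a3, a choline transporter-like protein, lay at 5.71, 5.78, 5.72 and 6.18 on paracardial and at 7.32, 8.77 and 8.77 on intra-abdominal arrays. The depots lay more than 1 apart at their nearest values, with a difference of -2.44 ± 0.40 (95% confidence interval -3.39 to -1.49, adjusted p = 0.018), -2.31 within the 5 arrays and -2.58 within the 2. Its call held for 3 of the 7 left-out arrays, and its adjusted p was 0.077 without intra-abdominal array 2, 0.062 without paracardial array 1, 0.053 without array 2 and 0.052 without array 3. Its relative Slc44a4 differed by -0.07 (0.891) and the acetyl-CoA transporter Slc33a1 by -0.09 (0.825). None of the 9 Slc35 genes passed (median -0.12), led by Slc35f5 (-1.34 ± 0.36, adjusted p = 0.066) and Slc35f2 (0.60, 0.229). They were grouped as nucleotide sugar transporters by family number alone, whatever each one carries. Besides Slc46a2 the 6 nucleoside, vitamin and peptide carriers included Slc29a3, a lysosomal nucleoside transporter (-0.60, 0.551).

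None of 22 organic ion and drug transporters passed by limma, and 3 had an unadjusted p under 0.05, beside 2265 of all 9294 genes. The largest differences belonged to Slc22a4, the ergothioneine transporter OCTN1 (-1.70 ± 0.60, adjusted p = 0.139), and the sulfate transporter Slc13a4 (-1.54 ± 0.52, 0.125), both highest on intra-abdominal array 3 at 8.83 and 7.31. In 19 of the 22 (86.4%) the difference was negative, against 68.9% of all members and 39.4% of all genes. Paracardial array 4 held the lowest of the 7 values in 15 of the 22, against 38 of all 119 members and 1428 of all 9294 genes. The median of the 22 was 4.96, 4.94, 4.96 and 4.21 on paracardial and 5.41, 5.16 and 4.60 on intra-abdominal arrays, so the 2 arrays of the higher ceiling were the lowest of their depots. Several Slc22 members (Slc22a19, Slc22a28, Slc22a29 and Slc22a30) are close paralogs, and their values are uncertain. Among other transporter families, 1 of 4 anion transporters named Slco and sideroflexins was lower (Slco2b1, an organic anion importer, -1.55 ± 0.36, adjusted p = 0.048) and none of 10 ABC transporters passed, led by Abcc9, a subunit of potassium channels of vessels (-3.10, adjusted p = 0.057).

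Some transporters of kidney tubules stood apart on 1 array. On intra-abdominal array 1, 10 of 119 members (8.40%) lay at least 1 above every other array, where 97 of all 9294 genes (1.04%) did. The kidney transporters Slc9a3 (5.44 there, up to 4.91 on the other arrays) and Slc22a6 (5.32, up to 5.27) did not reach that gap. None of the 10 passed the depot comparison. Slc34a1, the sodium phosphate cotransporter of the proximal tubule, was the most extreme, with 12.52, 8.71 and 5.67 in intra-abdominal and 6.38, 6.43, 7.51 and 4.96 in paracardial fat. Its difference was -2.64 ± 1.54 (adjusted p = 0.363), and -0.87 without intra-abdominal array 1. The salt cotransporters Slc12a1 (NKCC2, of the loop of Henle) and Slc12a3 (NCC, of the distal tubule) stood at 9.44 and 9.46 on array 1, 6.46 and 6.63 on array 2 and 4.37 and 4.78 on array 3. On paracardial arrays Slc12a1 ranged from 3.94 to 5.75 and Slc12a3 from 4.47 to 5.60.

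The amino acid transporters of this set were Slc7a12 (9.93, 6.41 and 4.18 on intra-abdominal arrays 1 to 3), Slc3a1, the heavy subunit of the cystine transporter (9.31, 5.99 and 4.38), and Slc6a18 (7.34, 5.47 and 4.36). The organic ion transporters were Slc22a8 (OAT3), Slc22a19 and the exporter Slc47a1 (MATE1), and Slc5a8, a sodium-coupled monocarboxylate transporter, completed the 10. In all 10 the second intra-abdominal array lay above the third and above all 4 paracardial arrays. The differences of the 10, from -2.64 to -0.48 over all arrays, lay between -0.87 and 0.02 without intra-abdominal array 1. Of a list of 22 kidney genes, added after these values were seen, 10 were measured. Their mean was 9.11, 7.21 and 5.30 in intra-abdominal and 6.18, 5.87, 6.82 and 5.45 in paracardial fat, and none passed the depot comparison. The androgen-regulated kidney protein gene Kap had the largest difference of the list. It stood at 16.74, 13.72 and 4.39 on intra-abdominal arrays and at 9.70, 7.33, 11.57 and 5.03 on paracardial arrays. Podxl, unlike the other measured kidney genes, was highest on intra-abdominal array 3 (7.5, 6.8 and 8.4 on arrays 1 to 3). It lay lower in paracardial fat without overlap (-1.56, adjusted p = 0.064 by limma). The part of kidney RNA in these values was not tested. Without intra-abdominal array 1 the median over all members was -0.10 (0.17 over all genes), with 78 of 119 members and 3539 of all 9294 genes negative.

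**Figure D4:**
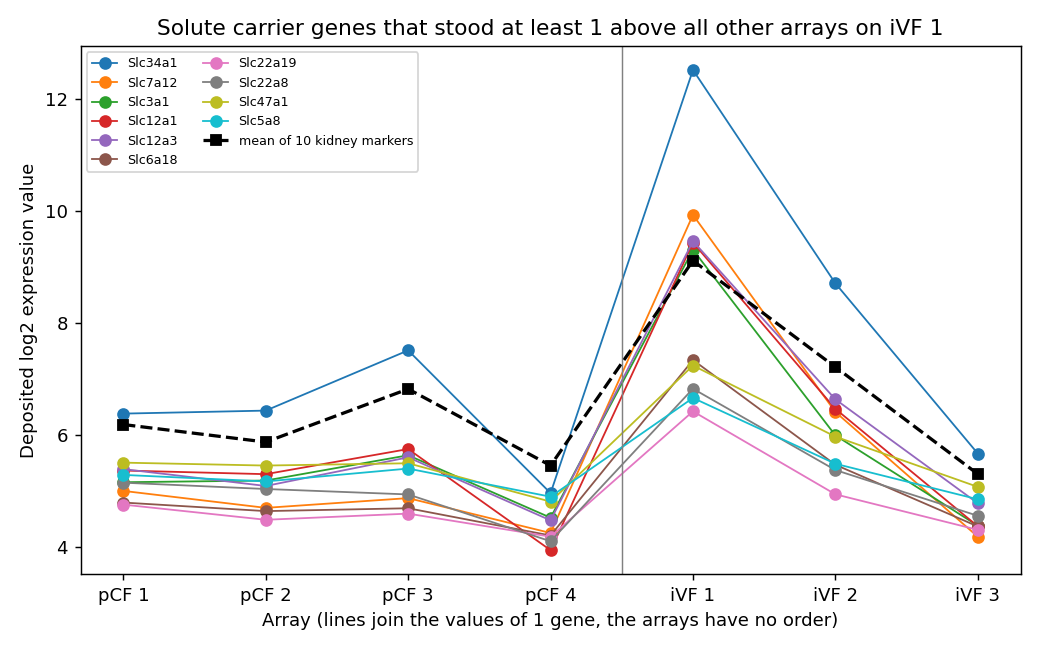
Deposited log2 value (vertical axis) of the 10 members that lay at least 1 above every other array on intra-abdominal array 1, and the mean of 10 kidney markers (black dashed line), on each of the 7 arrays (horizontal axis). All 10 members peak on iVF 1, with Slc34a1 at 12.52, and fall through iVF 2 to values on iVF 3 near or below those of paracardial fat.

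Besides it, 2 arrays held members that stood apart by the same measure. On intra-abdominal array 3, 14 members (11.8%, against 7.05% of all genes) lay at least 1 above every other array, among them the called genes Slc2a4, Slc6a13, Slc7a8, Slc16a12 and Slc9a3r2. On paracardial array 4, 5 members (4.20%, against 8.45% of all genes) did so: Slc16a1, Slc39a6, Slc46a2, Slc9a3r1 and Slc9a9. No member stood apart by this measure on paracardial arrays 1, 2 or 3 or on intra-abdominal array 2. In 35 members (29.4%, against 19.0% of all genes) at least 2 arrays held exactly the same deposited value, none of them among the 11 that passed.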

How the data were processed

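The samples were 4 of paracardial and 3 of intra-abdominal fat, measured on Affymetrix arrays. The authors deposited 1 log2 value per probe and array, and the submitters' processing notes name RMA and Affymetrix Expression Console, without versions or a build. The log base was taken from the range of the values, and scale and centring stay unknown. No scanner files were used, so detection above background is unknown, and depth does not apply to arrays: their number limits the precision.

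Of 11949 probes, 9352 had 1 platform symbol, 522 several and 2075 none. For 52 genes with several probes the one with the highest mean was kept, leaving 9294 genes. Symbols were updated through Entrez identifiers (5789 probes matched RefSeq GRCm38.p6, 188 symbols changed), while members were chosen by the platform's symbol.

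Depots were compared by a two-sided test in limma 3.58.1 (lmFit, then eBayes with no trend or covariate; R 4.3.3; 5 residual and 1.68 prior degrees of freedom), with Benjamini-Hochberg adjustment over all genes, a threshold of 0.05 and 95% intervals. Counts and plots were made in Python 3.11.15 (numpy 2.4.6, pandas 2.3.3, matplotlib 3.10.9). The members, groups, lists and alternatives were chosen with earlier results of these data known. Groups followed family numbers, except that 4 symbols of proteins that are no transporters were set apart after the table was seen; the kidney list was also added then. Named were all members past the threshold, the 2 largest differences of each group and 12 fixed names, of which 5 were measured, 28 members in all; of the partner lists, the genes past the threshold or the largest difference. Other members are given for context. Alternatives were filters on dim genes, other normalizations, variance models, array weights, blocks, probe choices, left-out arrays and genes at the ceiling.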

Additional observations from a re-analysis of the deposited data

Results flagged for a closer look

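Among the 28 named members, 2 had a paracardial array far from the other 3, where chance alone sets apart about 5% of groups of 4. Slc25a20, the acylcarnitine carrier, stood at 8.79 on paracardial array 4, with 6.36 to 6.58 on arrays 1 to 3. Slc44a3, the choline transporter-like gene, stood at 6.18 on the same array, with 5.71 to 5.78 on the others. Intra-abdominal groups of 3 arrays were not examined in this way.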

How the results depend on the processing

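The 2 higher and 9 lower members, and the 851 genes called in all, were recomputed under 14 settings beside the 7 that left out an array. The counts moved by over 1.5 times as follows. With the dimmest 50% of genes dropped, 1 member was higher, and centring on array medians also left 1. Array weights, whose estimation stopped before it converged, gave 9 higher and 29 lower members and 3614 genes, and the array set as a block 4 higher, 15 lower and 1654 genes. Without paracardial arrays 1 and 2, 0 members were higher (10 at an unadjusted limma p under 0.05), 0 were lower (12) and 1 gene passed (1751). With the replicate number as a block, 0 members were higher (5), 0 lower (17) and 0 genes passed (2134). No label says whether the numbers pair the samples. Deviations of same-numbered arrays correlated by 0.048, 0.047 and -0.500, and no intra-abdominal array correlated best with its own number. This check cannot settle pairing, since differences between single arrays also enter these deviations. Leaving out single arrays gave 0 to 1 higher members, 2 to 8 lower members and 185 to 833 genes. The cause of these shifts was not tested. Over the 228 refits of the 11 called members none changed direction and 73 lost the call; Slc27a1 and Slc16a7 lost it only with the replicate block and without paracardial arrays 1 and 2. Of 347 refits of the other 17 named members 22 gained a call. Slc29a3 turned to 0.040 and Slc33a1 to 0.064 without paracardial arrays 1 and 2, and Slc33a1 ranged from -0.16 to 0.026 over the single left-out arrays. Scaling changed the split of all calls from 581 higher and 270 lower to 436 and 474 after quantile normalization and 453 and 571 after cyclic loess, while the median over members stayed below 0 (-0.44 to -0.28). Members chosen by updated symbols gave the same 2 and 9 calls, and transporters alone 2 and 8, both chosen after the data were seen.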

Other observations

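Genes at the edge of the membership rule were measured too. Slc49a4, listed on the platform under its older symbol Dirc2, differed by -0.77 ± 0.28 (limma adjusted p = 0.154), with 8.02 to 8.68 on paracardial and 8.60 to 9.41 on intra-abdominal arrays. Slc22a13b, listed with a pseudogene symbol, differed by -0.09 (0.851). A probe with several symbols, 1 of them a solute carrier, was not analysed here.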
